A study of Homo sapiens with 4 samples.

Results

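Pol II occupancy was examined at 36 protein-coding genes of the lysosome, among 20033 annotated protein-coding genes. The list was given by name. It holds the MiT/TFE transcription factors TFEB, TFE3 and MITF, the lysosomal membrane proteins, hydrolases and transporters, and 14 genes of the vacuolar proton pump (V-ATPase). The cells were SK-OV-3, an established human ovarian cancer line, in which hairpin RNAs were stably expressed. The hairpin targeted RRN3 in one line (shRRN3). In the control line it targeted LacZ, a gene of bacteria (shLacZ). RRN3 is an initiation factor of RNA polymerase I, and the experiment asked how its loss affects transcription by Pol II. Chromatin was immunoprecipitated with 1 antibody against Pol II and sequenced (ChIP-seq), in 1 library per hairpin. The labels do not say which RRN3 hairpin was used. Each library is represented by 1 list of peaks, and the input libraries were not used here.

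There were no replicates, so the replicate error of every difference is unknown and no p-value is given. Of the peaks listed, 4014 came from shLacZ and 14363 from shRRN3. Because of this gap, the main counts of lysosome genes stand beside the same counts over all protein-coding genes. The peak score is that of the authors' peak caller and ranks peaks within a list. RRN3 itself had 0 peaks in either list from 2 kb before to 2 kb past the gene, and the knockdown could not be checked from the peaks. Among 7 markers chosen for epithelial ovarian carcinoma, PAX8 had a peak at its start in both lists. A single shRRN3 peak lay within 1 kb of the starts of the adjoining genes KRT8 and KRT18. KRT7, KRT19, ERBB2 and MUC16 had none at their starts in either list. None of 7 markers of blood, endothelium, liver or muscle had a start peak in either list.

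Lysosomes are the acidic organelles in which cells break down proteins, lipids and sugars taken up from outside or delivered by autophagy. The V-ATPase pumps protons across their membrane, with a cytosolic V1 sector that splits ATP and a membrane V0 sector that carries the protons. TFEB, TFE3 and MITF bind a short palindrome, the E-box CACGTG, which is extended to TCACGTGA in the core of the CLEAR element found before many lysosome genes. When nutrients are short these factors move into the nucleus and raise the expression of such genes.

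The sequences before the starts of 4 members are shown because they carry the E-box and differ in whether Pol II peaks were listed over them. They come from RefSeq on GRCh38.p14, on the strand of the gene, and E-boxes are in capitals. ATP6V0B (chr1:43974840-43974959) and ATP6V1G1 (chr9:114587649-114587726) had a shRRN3 peak over the whole stretch. LAMP1 (chr13:113297039-113297238) and MCOLN1 (chr19:7522504-7522623) had no peak in either list and were chosen for display after their values were seen. All 4 genes lie on the plus strand.
ATP6V0B: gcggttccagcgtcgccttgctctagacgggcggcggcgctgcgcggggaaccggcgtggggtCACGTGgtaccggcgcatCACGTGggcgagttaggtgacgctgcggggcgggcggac
ATP6V1G1: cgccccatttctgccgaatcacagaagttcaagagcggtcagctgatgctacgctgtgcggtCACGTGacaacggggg
LAMP1: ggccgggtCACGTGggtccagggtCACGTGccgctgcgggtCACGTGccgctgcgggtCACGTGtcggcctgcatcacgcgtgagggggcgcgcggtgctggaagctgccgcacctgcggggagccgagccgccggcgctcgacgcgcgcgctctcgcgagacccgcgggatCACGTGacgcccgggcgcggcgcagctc
MCOLN1: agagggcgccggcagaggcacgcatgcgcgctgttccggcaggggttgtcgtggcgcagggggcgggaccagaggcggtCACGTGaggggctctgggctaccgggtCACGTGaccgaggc
The ATP6V0B stretch holds 2 E-boxes and LAMP1 holds 5 in the 200 bases before its start. The extended form TCACGTGA occurs at 1 E-box in ATP6V1G1, 1 in LAMP1 and 2 in MCOLN1. A match is only a match of letters, and binding of the factors was not measured.

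A peak was counted at a gene start (TSS) when its midpoint lay within 1 kb of the outer bound of the annotated gene. In shLacZ, 4 of the 36 genes (11.1%) had such a peak, against 7.56% of all protein-coding genes. In shRRN3, 12 genes (33.3%) had one, against 23.7% of all. Start peaks were found in both lists at ATP6V0C, ATP6V1D and ATP6V1E1, or 3 genes, where 6.41% of all genes had them in both. Another 9 had a start peak in shRRN3 alone (17.3% of all genes) and 1, ATP6V1H, in shLacZ alone (1.15% of all genes). The lysosome genes with a start peak were 3 times as many in shRRN3 as in shLacZ, and the ratio over all genes was 3.14. This ratio rests on 4 shLacZ genes and depended on which peaks and genes were counted. When shRRN3 was reduced to its 3920 top-scoring peaks, the lysosome genes with a start peak went from 4 in shLacZ to 0 in shRRN3, while the share of all genes went from 7.56% to 9.74%. Among genes with no other coding start within 1 kb, the lysosome genes went from 1 to 7 of 27, against 6.28% and 19.3% of all such genes.

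**Figure D1:**
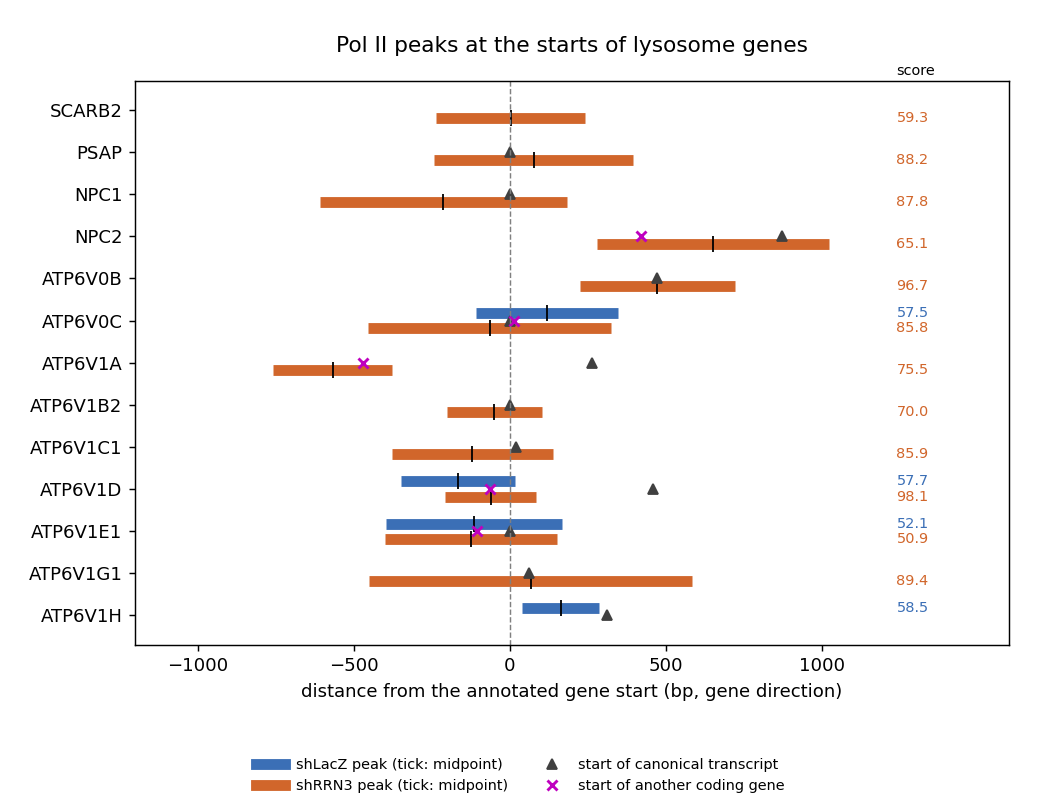
Start peaks of the 13 genes that had one, as bars from the peak's first to last base along the distance from the annotated gene start in bp, with the peak score at the right. Blue bars are shLacZ and orange bars are shRRN3, with 3 genes carrying both colours. Triangles mark the start of the canonical transcript (that of SCARB2, 20712 bp into the gene, is off the axis) and crosses the start of another coding gene.

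Start peaks were unevenly spread over the roles of the genes. Of the 14 V-ATPase genes, 4 had one in shLacZ (28.6%) and 8 in shRRN3 (57.1%). Over all protein-coding genes the shares were 7.56% and 23.7%. Among the 10 V-ATPase genes with no other coding start within 1 kb, 1 had a start peak in shLacZ and 4 in shRRN3. The 11 V-ATPase subunit genes outside the list had 0 in shLacZ and 2 in shRRN3. Of the 22 listed genes outside the V-ATPase, none had a start peak in shLacZ and 4 had one in shRRN3 (18.2%). The proteases and glycosidases, 9 genes in all, had 0 in either list. With so few genes per role these shares are a description.

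**Figure D2:**
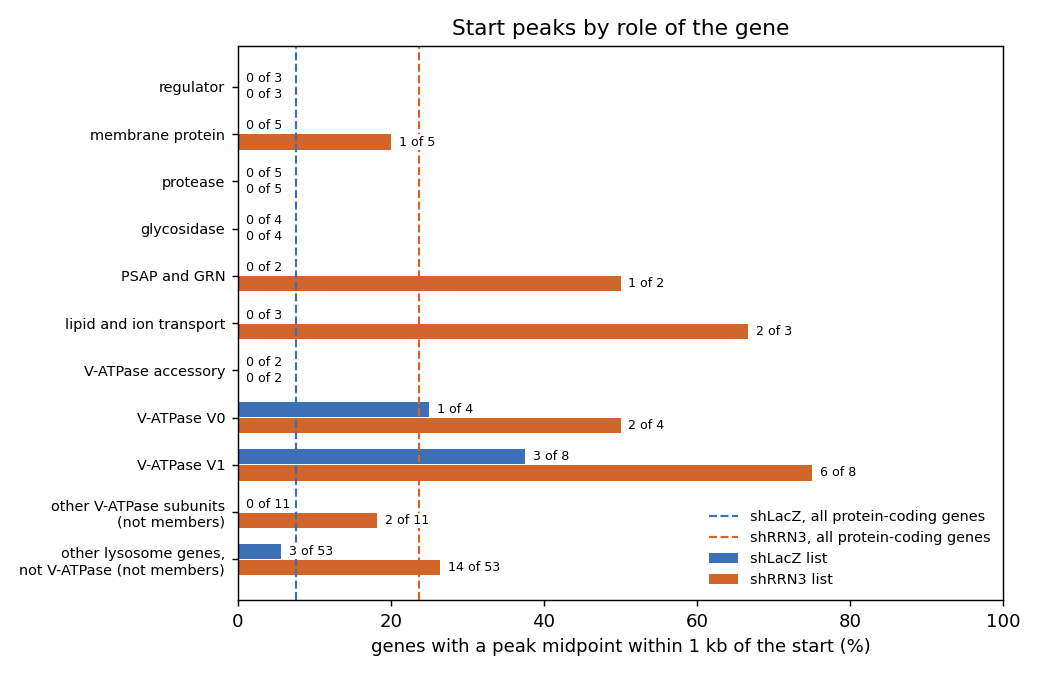
Share of genes, in percent, with a start peak in shLacZ (blue bars) and shRRN3 (orange bars), by role, with the number of genes beside each bar. Dashed lines mark all protein-coding genes (7.56% and 23.7%). The V1 sector stands highest, with 3 and 6 of 8 genes, and the regulators, proteases, glycosidases and accessory subunits have 0.

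None of the regulators had a peak at its annotated start. TFEB, the factor best known for driving lysosome biogenesis, had no peak in the gene or within 2 kb past its end, and its start was 51237 bp away from the nearest shLacZ midpoint and 51188 bp from the nearest shRRN3 midpoint. TFE3, a close relative, was also without a peak, the nearest lying at 41002 bp and 30742 bp. MITF, which also governs pigment cells, was the regulator with peaks, all inside this longest gene of the list (228881 bp).

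In shLacZ, MITF had 1 peak of 192 bp and score 51.4 (chr3:69888413-69888604), in intron 2 of the canonical transcript. In shRRN3 it had 3 peaks, all in intron 1, with scores of 76.7 (69770265 to 69770459), 56.4 (69866196 to 69866586) and 108 (69867008 to 69867373). The MITF peaks of the lists did not overlap, and the closest were 21040 bp apart. The first shRRN3 midpoint lay within 1 kb of the start of RN7SL418P, annotated as a miscellaneous RNA gene. The last 2 shRRN3 midpoints lay 124 and 923 bp from the annotated start of a shorter MITF transcript, ENST00000693549. Counting every annotated coding start would therefore have given MITF a start peak in shRRN3, and 13 genes in all.

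Among the membrane proteins, LAMP1 and LAMP2, the main glycoproteins of the lysosomal membrane, had no peak in either list. TMEM192, another membrane protein, had none either. SCARB2, the receptor that carries glucocerebrosidase to lysosomes, had a shRRN3 peak of score 59.3 and 480 bp (chr4:76234294-76234773). Its midpoint lay 3 bp from the outer gene bound, inside the neighbouring gene FAM47E, while the canonical SCARB2 transcript starts 20712 bp further in. With canonical starts SCARB2 was lost from the list of start peaks. CD63, a tetraspanin of late endosomes, had no start peak and had a peak over its end, described further on.

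The cathepsins CTSB, CTSD, CTSL and CTSZ and the protective protein CTSA, which are proteases of the lysosome, had no peak at the start, in the body or within 2 kb past the end in either list. The nearest shRRN3 midpoint to the CTSD start was 8150 bp away and that to the CTSA start 8945 bp. At CTSB the distance was 1483892 bp to the nearest shLacZ midpoint and 1324215 bp to that of shRRN3. The glycosidases GAA (glycogen), HEXA (gangliosides) and NEU1 (sialic acid) had no peak, and GLA, which cleaves galactose from glycolipids, had 1 in its body in shLacZ.

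Absence at some of these genes was shared by their surroundings. Among 100 protein-coding genes with starts within 1 Mb of NEU1, which lies in the major histocompatibility complex of chromosome 6, 0 had a start peak in either list. The same was true of the 19 genes around CTSB and the 11 around the outer bound of TMEM192, whose RefSeq start lies 95689 bp further in. For ATP6V1G1, which did have a start peak, it was 0 of 14 neighbours. The genes around CTSD were different, with a start peak in 3 of 47 in shLacZ and 6 in shRRN3. The cause of the absence of peaks around NEU1, CTSB and TMEM192 was not tested. This count was made after the values were seen.

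PSAP, the precursor of the saposins that help enzymes reach lipids, had a shRRN3 peak of score 88.2 and 640 bp (chr10:71850855-71851494), with its midpoint 77 bp into the gene. No shLacZ midpoint lay within 364944 bp of the PSAP start. GRN, the progranulin gene, had no peak in either list, and its nearest shRRN3 midpoint lay at 27376 bp.

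The cholesterol exporters NPC1 and NPC2 both had a start peak in shRRN3 alone. At NPC1, which is a membrane protein, the peak had a score of 87.8 and 791 bp (chr18:23586323-23587113), with its midpoint 212 bp before the start. NPC1 had a further shRRN3 peak of score 92.2 and 568 bp in intron 1, with a midpoint 5420 bp into the gene. At NPC2, the soluble partner of NPC1, the peak had a score of 65.1 and 743 bp (chr14:74493154-74493896). Its midpoint lay 652 bp inside the outer bound of NPC2 and 220 bp before the canonical NPC2 start. It was 231 bp before the start of ISCA2, which runs in the opposite direction. The midpoint thus lies between the canonical NPC2 start and that of ISCA2. MCOLN1, the calcium channel of the lysosome, had no peak.

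In the V0 sector, ATP6V0C, the gene of the proton-binding ring subunit, had a start peak in both lists. The shLacZ peak had a score of 57.5 and 454 bp (chr16:2513845-2514298), and the shRRN3 peak a score of 85.8 and 778 bp (2513500 to 2514277). They shared 433 bp, or 95.4% of the shLacZ peak. A readthrough gene, ENSG00000259784, starts 13 bp further on the same strand and cannot be told apart from ATP6V0C by position.

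ATP6V0B, another ring subunit, had a shRRN3 peak of score 96.7 and 496 bp (chr1:43974713-43975208), with its midpoint exactly at the canonical start, in exon 1. This peak covers both E-boxes of the printed stretch. ATP6V0D1, which joins the ring to the stalk, and ATP6V0E1, a small membrane subunit, had no peak. The accessory subunits ATP6AP1 and ATP6AP2 had none either.

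The V1 sector had the highest share, with a start peak at 3 of 8 genes in shLacZ and 6 of 8 in shRRN3. ATP6V1D, a subunit of the central rotor, had a shLacZ peak of score 57.7 and 365 bp (chr14:67360247-67360611) and a shRRN3 peak of score 98.1 and 291 bp (67360181 to 67360471). The shRRN3 peak was the highest-scoring start peak of the lysosome genes. It lay 2 bp from the start of EIF2S1, a translation initiation factor on the opposite strand, and 522 bp from the canonical ATP6V1D start. The shLacZ midpoint lay 101 bp inside EIF2S1.

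ATP6V1E1, a subunit of the outer stalk, had nearly the same peak in both lists (chr22:17628583-17629146 in shLacZ and 17628599 to 17629147 in shRRN3). The scores were 52.1 and 50.9, and the peaks shared 548 bp, or 99.8% of the shRRN3 peak. This gene had the lowest start peak of the list in both libraries. The midpoints lay 9 and 18 bp inside BCL2L13, which starts 106 bp away on the opposite strand.

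ATP6V1A, the catalytic subunit, had a shRRN3 peak of score 75.5 and 383 bp (chr3:113746012-113746394) that lay 97 bp inside its divergent neighbour NAA50 and 832 bp before the canonical ATP6V1A start. A further shRRN3 peak of score 115 lay outside the window, 1288 bp before the ATP6V1A gene and within NAA50. By position both peaks lie on the NAA50 side.

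ATP6V1C1, ATP6V1B2 and ATP6V1G1 had a start peak in shRRN3 alone and no other coding start within 1 kb. Their scores were 85.9 for ATP6V1C1 (chr8:103020685-103021203), 70.0 for the nucleotide-binding subunit ATP6V1B2 (chr8:20197180-20197485) and 89.4 for the outer stalk subunit ATP6V1G1 (chr9:114587257-114588289). The ATP6V1G1 peak was the widest of all start peaks at the lysosome genes, at 1033 bp, and covers the E-box shown before its start. ATP6V1F had no peak.

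ATP6V1H, the regulatory subunit, was the exception in direction. Its start peak was found in shLacZ alone, with a score of 58.5 and 248 bp (chr8:53843271-53843518), the narrowest start peak of these genes. The midpoint lay 164 bp into the gene, at -149 bp from the canonical start. No shRRN3 peak came closer than 42367 bp. The score stood at percentile 33.5 of the shLacZ list, and with 1 library per hairpin a lost peak cannot be told apart from a weak peak that fell under the threshold.

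Of the lysosome genes with a start peak, another coding gene started within 1 kb at 3 of 4 in shLacZ and 5 of 12 in shRRN3 (41.7%). Over all protein-coding genes with a start peak the shares were 31.4% and 32.8%. Another protein-coding gene starts within 1 kb of 9 of the 36 genes, and of these 9, 3 had a start peak in shLacZ (33.3%) and 5 in shRRN3 (55.6%). Over all such protein-coding genes, 3478 in number, the shares were 13.7% and 44.9%. Of the 27 genes with no such neighbour, 1 had a start peak in shLacZ (3.7%) and 7 in shRRN3 (25.9%), against 6.28% and 19.3% of the 16555 other protein-coding genes. Among the V-ATPase genes, 10 had no coding neighbour, and of these 1 had a start peak in shLacZ and 4 in shRRN3. All 3 lysosome genes with a start peak in both lists were among those with a coding neighbour. At ATP6V0C this neighbour is the readthrough gene ENSG00000259784, which starts 13 bp away on the same strand. The coding neighbours of CTSD and HEXA also lie on the same strand as the gene.

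The start peaks of the lysosome genes were of low to middle rank. In shLacZ their 4 scores ran from 52.1 to 58.5, and 74% of all 1325 start peaks scored above the highest of them. The median was 57.6, against 69.98 over all start peaks of that list. In shRRN3 the 12 scores ran from 50.9 to 98.1, with a median of 85.8 against 86.6 over all 4371 start peaks, and 40.7% of all start peaks scored above the highest. None reached 102.86, the lowest score among the 3920 highest-scoring shRRN3 peaks on the primary chromosomes, which is as many as shLacZ has there. In that reduced list 0 of the 36 genes had a start peak, against 9.74% of all protein-coding genes.

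**Figure D3:**
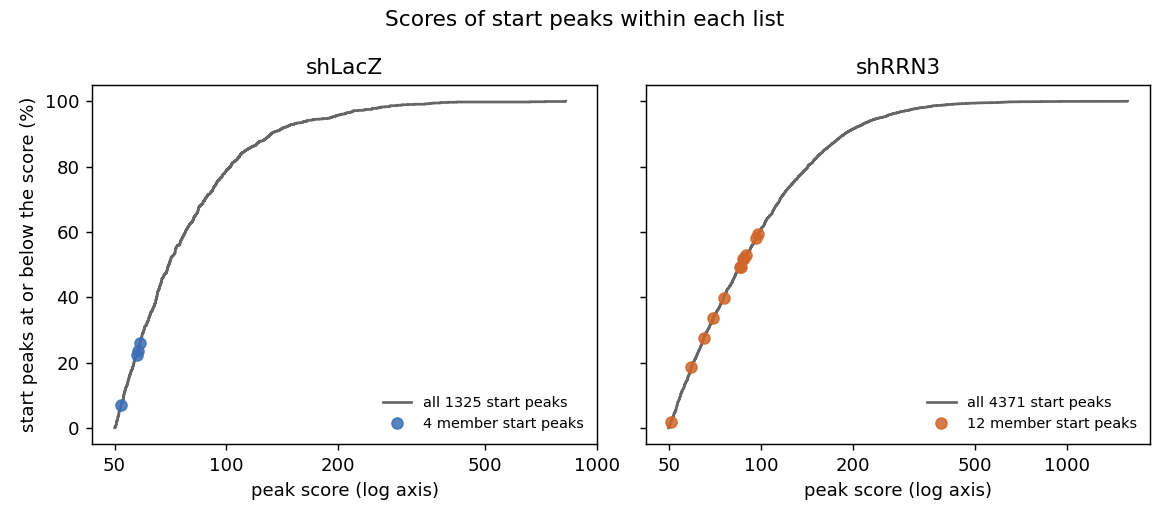
Cumulative share of start peaks, in percent, against peak score on a log axis, for shLacZ (left, 1325 peaks) and shRRN3 (right, 4371 peaks). Coloured points are the 4 and 12 start peaks of the lysosome genes. They lie at the lower end in shLacZ and between the lowest scores and the middle in shRRN3, none above 98.1.

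Peaks in gene bodies were counted more than 1 kb from the start. MITF and GLA had one in shLacZ, or 2 of 36 genes (5.56%), against 5.76% of all protein-coding genes. MITF and NPC1 had one in shRRN3, again 5.56%, against 18.1% of all. The shRRN3 count depended on the midpoint rule, since with any overlap it was 5 of 36 (13.9%), against 19.8% of all. The genes gained were ATP6V0C, CD63 and NPC2. Their overlapping peaks were those already counted past the end (ATP6V0C and CD63) or at the start (NPC2). The median gene length was 26722 bp in the lysosome list and 27471 bp over all genes. The GLA peak (chrX:101396918-101397156) had a score of 58.3 and lay past the end of the canonical GLA transcript, within the readthrough gene RPL36A-HNRNPH2 of the other strand. The NPC1 peak was the only body peak of the list in shRRN3 outside MITF. With peaks near another start left out, MITF no longer had a body peak in shRRN3.

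The study asked about transcription termination, and peaks just past gene ends were therefore recorded. In shLacZ 0 of the 36 genes had a peak within 2 kb past the end, against 1.26% of all protein-coding genes. In shRRN3 there were 2, CD63 and ATP6V0C, against 4.43% of all. The CD63 peak (chr12:55724438-55725612) was 1175 bp wide with a score of 57.0, and its midpoint lay 298 bp past the end, with no other coding start within 1 kb. The ATP6V0C peak (chr16:2520136-2520500) had a score of 51.3 and a midpoint 100 bp past the end, 39 bp from the start of AMDHD2, so it may belong to either gene by position. Just beyond the 2 kb limit, shRRN3 peaks lay 2041 bp past CTSD, 116 bp from the start of IFITM10, and 2157 bp past GLA, 292 bp inside RPL36A. Counts of this size do not show a difference between the hairpins at these gene ends.

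No peak at the start, in the body or past the end was found in either list at 20 of the 36 genes (55.6%), against 62.5% of all protein-coding genes. For these 20, the nearest shLacZ midpoint lay between 30192 bp (ATP6AP1) and 3180476 bp (TMEM192) from the start. The nearest shRRN3 midpoint lay between 8150 bp (CTSD) and 1848681 bp (NEU1).

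**Figure D4:**
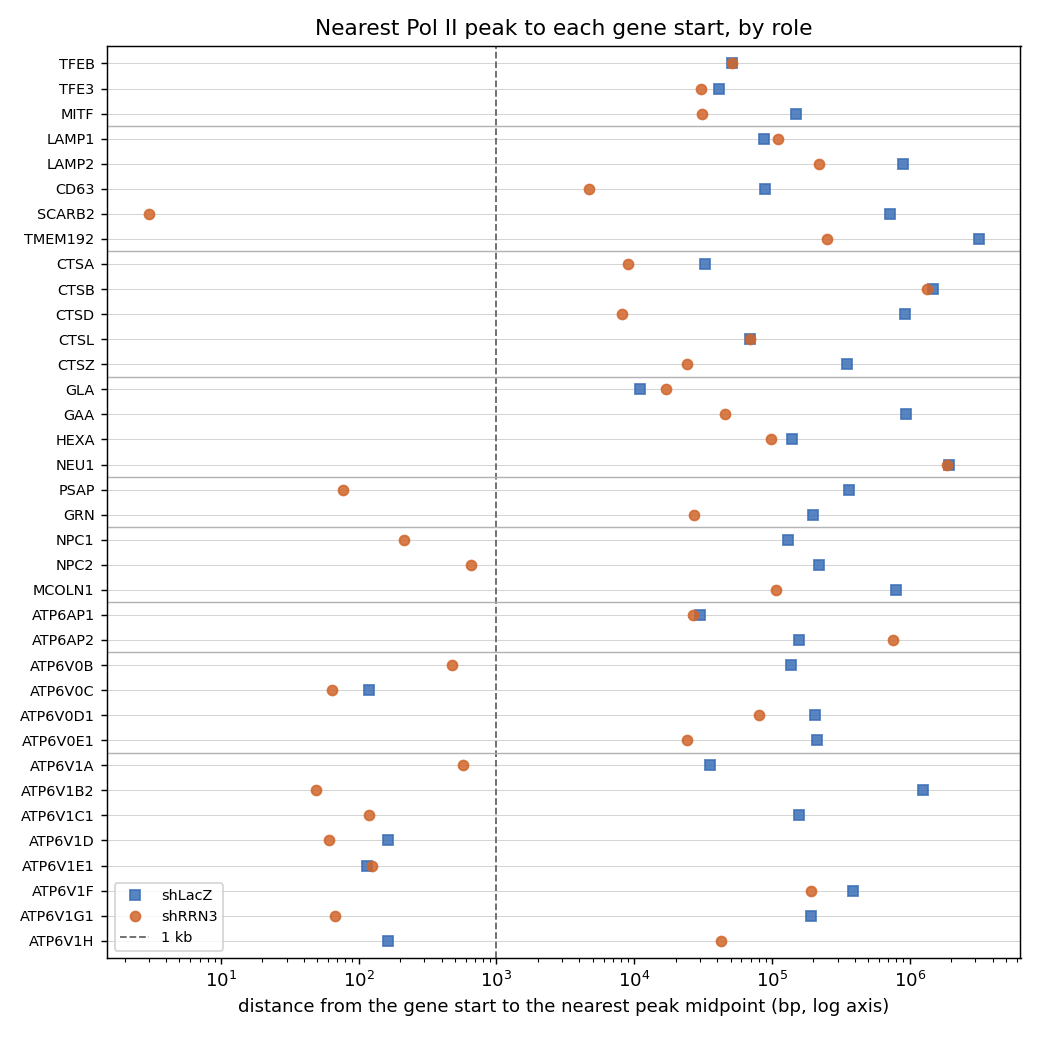
Distance in bp, on a log axis, from each of the 36 gene starts to the nearest peak midpoint, with blue squares for shLacZ and orange circles for shRRN3, grouped by role. Points left of the dashed line at 1 kb are start peaks. The 12 shRRN3 and 4 shLacZ start peaks stand apart from the remaining distances, which are 4682 bp or more.

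E-boxes were counted in the promoters of the lysosome genes, from 250 bases before to 50 after the RefSeq start. RefSeq entries matched 27 of the 36 genes (75%), which is under the 80% needed to speak for the list, so the counts describe these entries. CACGTG occurred in 10 of the 27 (37%), against 8.89% of 15345 matched protein-coding promoters. The extended TCACGTGA, counted within the former, occurred in 6 (22.2%), against 1.47% of all. Both words read the same on either strand. Lysosome genes are known as targets of these factors, so the list was not independent of the motif.

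For this comparison a peak was counted within 1 kb of the RefSeq start itself, which leaves out SCARB2, whose peak lies at the outer gene bound. This count was added after the values were seen. The E-box was present in 2 of the 7 entries with a peak in either list, those of ATP6V0B and ATP6V1G1. It was also present in 8 of the 20 without one, namely LAMP1, CD63, CTSA, CTSD, GAA, NEU1, MCOLN1 and ATP6V0D1. These shares were 28.6% and 40%, against 10.02% and 8.45% of all matched promoters with and without a peak. LAMP1 had the most, with 6 in the whole window, and no peak within 87745 bp. The GC share of the promoters had a median of 68% with a peak and 68.2% without. Over all matched promoters the medians were 64.7% with a peak and 62% without.

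Other lysosome genes were counted from a list of 64, including enzymes, membrane proteins, sorting receptors and the V-ATPase subunits left out above. A start peak was found at 3 of them in shLacZ (4.69%) and at 16 in shRRN3 (25%), close to the 7.56% and 23.7% of all genes. All 3 of the former had one in both lists. Among them were AGA, which cleaves the sugar from asparagine (scores 92.7 and 308), and CD68, a membrane glycoprotein (scores 69.3 and 262). In shRRN3 the AGA and CD68 peaks scored above every start peak of the 36 genes, the highest of which was 98.1. Of those in shRRN3 alone, the highest scores were 110 at M6PR, a mannose 6-phosphate receptor, 99.4 at LAPTM4A, a transmembrane protein, and 93.0 at ATP6V0A1, a V0 subunit. The remaining V-ATPase subunit genes, many of them tissue-restricted forms, had 0 of 11 in shLacZ and 2 of 11 in shRRN3, at ATP6V0A1 and ATP6V0A2.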

How the data were processed

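The authors deposited 1 list of Pol II peaks per hairpin, with a score for each peak. The peak names carry the name of MACS, and the labels give the build as hg38. The scale of the score, the caller's version, the aligner, the calling threshold and whether the input served as background are not given in the sources used here. A score depends on depth, which is unknown from a peak list. Scores were used only within a list, apart from 1 alternative that applied the shLacZ median to both lists.

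Peaks on chromosomes 1 to 22, X and Y (3920 in shLacZ and 14322 in shRRN3) were placed against GENCODE release 44. Peaks on other sequences, 94 in shLacZ and 41 in shRRN3, were left out. Start peaks had a midpoint within 1 kb of the outer gene start, body peaks lay in the gene beyond that, and peaks past the end lay within 2 kb of it. Overlap meant at least 1 shared bp. No test was made between the hairpins, with 1 library each. Genes and lists were chosen with earlier results of these data known. Values are given for the regulators, for genes with a start peak, and for those with body or end peaks. Genes named beyond this rule were chosen after their values were seen. The values of 1 other lysosome gene are not reported here. Window counts were tested on simulated peaks and against direct counts at 300 genes. Versions were matplotlib 3.10.9, pandas 2.3.3, numpy 2.4.6 and Python 3.11.15.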

Additional observations from a re-analysis of the deposited data

How the results depend on the processing

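Of 78 values of 11 counts under alternatives, 57 stayed within 1.5 times of the reported count, 4 moved up and 17 moved down. Some of the 57 could not move. Reducing the shRRN3 list does not touch the shLacZ list, and a count of 0 cannot fall. Numbers of genes were compared, and not shares, also where genes were left out. A narrower or wider window, any overlap, canonical starts and all coding starts moved no count of start peaks beyond that. A cutoff at a score of 66.05, the shLacZ median, was applied to both lists and may not be equally strict in them. It left 0 start peaks in shLacZ, 0 in both lists and 0 in shLacZ alone among the 36 genes. It also left 10 start peaks in shRRN3 among the other lysosome genes, 0 body peaks in shLacZ and 0 peaks past the end in shRRN3. Keeping only the 3920 top-scoring shRRN3 peaks left 0 start peaks in shRRN3, 0 in both lists and 0 in shRRN3 alone, 4 in shLacZ alone, 4 among the other lysosome genes, 1 gene with a body peak and 0 past the end. By construction both alternatives drop low-scoring peaks. Without genes that share a promoter with another coding gene, 27 of the 36 genes were left, with start peaks at 1 in shLacZ, 7 in shRRN3 and 0 in both lists. ATP6V0C was left out here because of its readthrough gene.

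Counting any overlap gave body peaks at 5 genes and peaks past the end at 4 in shRRN3, and 5 kb past the end also gave 4. Leaving out peaks near another start gave 1 gene with a body peak, and leaving out those near another coding start gave 1 past the end. The number of peaks per list and the single library per hairpin limit every count. No paired analysis was possible because each hairpin had 1 library.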
